A study of Mus musculus with 24 samples.

Results

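This account follows 10 genes of the mouse pluripotency network, Pou5f1, Nanog, Esrrb, Zfp42, Klf4, Dppa5a, Tdgf1, Utf1, Lin28a and Dnmt3b, through a small RNA sequencing series on the Huntington's disease gene. They were taken by name, and each matched 1 of the 55335 Ensembl gene rows through GENCODE mouse release M21. The series compared mouse embryonic stem cells (mESC) with neural progenitor cells (NPC) derived from them, in 6 Htt genotypes with 2 biological samples each, 24 libraries in all; its title concerns the relation of CAG repeat length to RNA splicing. Per the labels, the genotypes were an Htt knockout (KO), wild type (WT), and 4 heterozygous Hdh CAG knock-in mESC lines, Q20, Q50, Q92 and Q111, where the number is that of the CAG repeats and the growth protocol gives 89 for the line titled Q92. Each repeat length was 1 line, so a difference between lines and an effect of the repeat cannot be told apart. The mESC were kept with leukemia inhibitory factor (LIF) and serum on a layer of irradiated mouse fibroblasts, and the NPC in a medium with FGF and EGF on laminin after a neural differentiation without serum.

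In embryonic stem cells a small set of transcription factors holds the undifferentiated state, with Pou5f1 (also called Oct4) and Nanog at its centre and Esrrb, Klf4 and Zfp42 (Rex1) marking the naive state. Other members of the set act beside these factors: Tdgf1 (Cripto) is a cell-surface co-receptor for Nodal, Lin28a an RNA-binding protein that blocks the maturation of let-7 microRNAs, Dnmt3b a de novo DNA methyltransferase that rises as naive cells move towards the primed state, Utf1 a chromatin-associated factor, and Dppa5a an RNA-binding protein of the naive cell. Most of them are shut down as stem cells take on a neural fate, while Lin28a and Dnmt3b are also known from early neural progenitors. Small RNA libraries are built for short RNAs, so the counts on these genes are short pieces of messenger RNA, and a level here is that of fragments and not of the intact messenger RNA.

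The promoters of 4 of these genes are shown. Nanog and Zfp42, without a count in any NPC library, were picked because their windows hold a motif that was searched, and Lin28a and Dnmt3b because they were counted in NPC of 1 line. Each run is the 250 bases before a RefSeq start site (GRCm38.p6), written 5′ to 3′ on the gene's strand. Capitals mark TTTGCAT, part of the octamer that POU factors such as Pou5f1 bind, searched on both strands.
Nanog, chr6:122707239-122707488, plus strand: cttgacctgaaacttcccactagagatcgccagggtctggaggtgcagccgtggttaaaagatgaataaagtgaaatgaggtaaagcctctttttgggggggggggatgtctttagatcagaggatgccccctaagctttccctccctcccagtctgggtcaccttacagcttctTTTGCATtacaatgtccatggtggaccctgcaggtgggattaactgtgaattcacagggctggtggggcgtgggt
Zfp42, chr8:43307010-43307259, minus strand: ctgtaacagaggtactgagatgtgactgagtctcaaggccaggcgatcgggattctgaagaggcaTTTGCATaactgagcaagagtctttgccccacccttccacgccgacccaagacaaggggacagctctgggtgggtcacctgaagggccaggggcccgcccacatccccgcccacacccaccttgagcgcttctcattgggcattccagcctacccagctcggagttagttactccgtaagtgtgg
Lin28a, chr4:134018817-134019066, minus strand: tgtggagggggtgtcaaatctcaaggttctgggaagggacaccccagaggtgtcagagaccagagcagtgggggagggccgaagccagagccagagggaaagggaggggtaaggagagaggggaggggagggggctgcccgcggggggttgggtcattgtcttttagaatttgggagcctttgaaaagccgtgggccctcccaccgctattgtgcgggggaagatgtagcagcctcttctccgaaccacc
Dnmt3b, chr2:153649199-153649448, plus strand: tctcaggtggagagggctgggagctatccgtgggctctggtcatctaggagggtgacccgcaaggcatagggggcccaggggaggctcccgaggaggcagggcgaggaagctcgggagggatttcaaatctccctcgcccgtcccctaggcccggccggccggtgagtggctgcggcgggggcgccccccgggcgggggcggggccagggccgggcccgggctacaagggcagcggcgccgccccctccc
The letters TTTGCAT stood in the windows of 2 of the 9 genes that have a window, Nanog and Zfp42, and in 4.13% of all 32851 windows of this length. Tdgf1, also without an NPC count, has a window without the letters. In Nanog the match began 75 bases and in Zfp42 185 bases before the start site. The letters TCAAGGTCA, the site read by Esrrb, were in none of the 12 windows of these genes, counted with second start sites, and in 0.387% of all windows. A match is a description of the sequence, and no binding was measured.

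Library totals lay between 642384 and 2360434 counts in mESC and between 342022 and 682113 in NPC, and from 3.63% to 6.84% of them fell on protein-coding genes. Levels are given in CPM, the counts divided by a library total that was scaled by the TMM method. A count of 0 allowed up to 1.12 to 4.23 CPM in an mESC library and 4.50 to 8.95 CPM in an NPC library, the level that 3 counts would give. Such limits, and the intervals given below, cover counting error only. A fold given below as at least a value sets the group without a count at 3 counts. It takes the other group's count as it is, without that count's own error. In 5 of the 6 genotypes the mESC library of replicate 2 was less deep than that of replicate 1, and the labels name no batch.

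The 10 genes together received 926 counts in the mESC libraries and 27 in the NPC libraries. Per library the sum was lowest at 43, had a median of 80.0 and reached 117 in mESC, and of the 27 NPC counts 23 came from the Q20 line. Every mESC library lay above every NPC library, at 33.9 to 71.3 CPM against 0 to 21.6 CPM. The summed level was 11.8-fold higher in mESC (95% counting interval 8.02 to 17.9), and 63.2-fold higher in the 5 genotypes other than Q20 (24.6 to 232). Fewer cells with these messenger RNAs and less of them per cell cannot be told apart in bulk libraries.

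**Figure D1:**
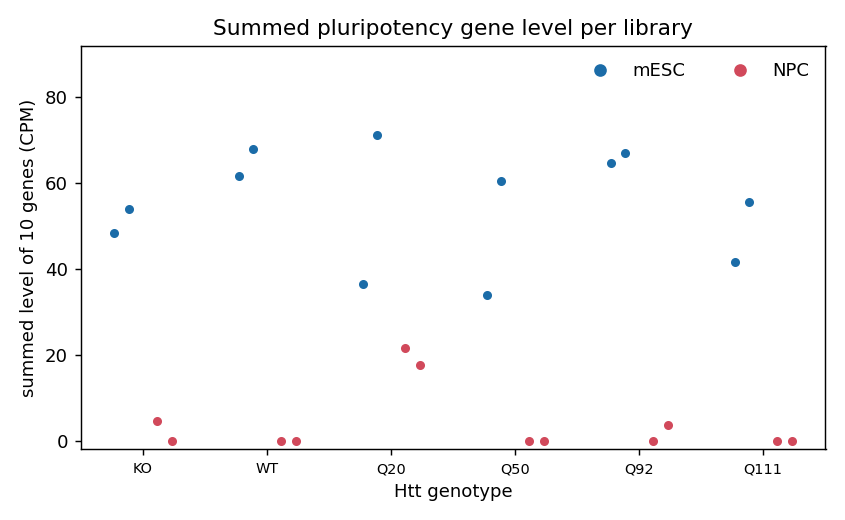
Summed level of the 10 genes in each library (CPM, vertical axis) by Htt genotype (horizontal axis), with 2 mESC and 2 NPC libraries per genotype as points. The mESC points lie between 33.9 and 71.3 CPM; the Q20 NPC libraries, at 21.6 and 17.7 CPM, are the highest NPC points.

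Of the 10 genes, 9 were called lower in NPC at an adjusted p under 0.05 by edgeR's quasi-likelihood test over 9622 genes, of which 7.89% were called lower and 14.6% higher. Scaling by library totals in place of TMM changed that split over all genes from 759 lower and 1401 higher to 496 and 1811, and shifted the median over all genes from 0.19 to 0.45 on the log2 scale. The same 9 members were called lower under both. The median log2 change of the 10 was -3.78 as fitted and -3.42 with the 4 genes without an NPC count at their bound, against 0.19 for all genes tested. In 4 of them, Pou5f1, Nanog, Zfp42 and Tdgf1, every mESC library lay above every NPC library in CPM, which held for 0.707% of all genes tested. These are observed values, and the lowest mESC value of each gene was under what a count of 0 allows in an NPC library. All values below come from edgeR's test with Benjamini-Hochberg adjustment.

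Pou5f1 (chromosome 17, 35506018 to 35510772), the POU factor at the head of the network, had 4 counts in its lowest mESC library, a median of 7.5 and 13 in its highest. In NPC it had 1 count in each Q20 library and 0 in the other 10. Its level was 16.3-fold higher in mESC (95% counting interval 4.38 to 136), with a log2 change in NPC of -3.78 ± 0.64 (SE, adjusted p 8.64e-08). An antisense gene, Gm19553, overlaps its exons and had 4 counts in mESC.

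Nanog (chromosome 6, 122707489 to 122714633), a homeobox factor, ran from 4 through a median of 11.0 to 16 counts in mESC and had 0 counts in all 12 NPC libraries. The mESC level was at least 14.7-fold higher, taking 3 counts over the NPC libraries as the floor (adjusted p 1.55e-12). Zfp42 (chromosome 8, 43295063 to 43306980), a zinc finger gene used as a reporter of the naive state, likewise had no NPC count, against 2 to 14 counts with a median of 9.5 in mESC. Its level was at least 12.3-fold higher in mESC (adjusted p 1.15e-10). For both genes the observed values of the cell types did not overlap. Their lowest mESC libraries, at 2.81 CPM for Nanog and 2.82 CPM for Zfp42, were under the 4.50 to 8.95 CPM that a count of 0 allows in an NPC library.

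Esrrb (chromosome 12, 86361117 to 86521628), an orphan nuclear receptor, had 3 to 13 counts in mESC with a median of 8.0. In NPC it had 1 count each in a KO and a Q92 library, so that its lowest mESC library, at 1.86 CPM, lay among the NPC values. Its log2 change was -3.77 ± 0.63 (SE, adjusted p 6.45e-08). Klf4 (chromosome 4, 55527143 to 55532466), a zinc finger factor of the naive network and of reprogramming, was the least counted member, with 0 to 5 counts and a median of 2.0 in mESC. It had 1 count in the same 2 NPC libraries as Esrrb. Klf4 fitted at -1.92 ± 0.82 on the log2 scale (SE, adjusted p 0.0731) and was the member that did not pass the test. It did pass when any 1 of 10 of the 24 libraries was left out, with an adjusted p of 0.0266 at the lowest, without replicate 1 of KO NPC.

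Utf1 (chromosome 7, 139943789 to 139945112) had 0 to 14 counts in mESC with a median of 5.5, and in NPC only 2 counts, both in replicate 1 of Q20. Its log2 change was -3.21 ± 0.69 (SE, adjusted p 4.89e-05). Tdgf1 (chromosome 9, 110939603 to 110946158) was the most counted member, at 5 to 18 counts in mESC with a median of 10, and had no NPC count. The bound for Tdgf1 was at least 15.2-fold higher in mESC (adjusted p 2.31e-13), and the pseudogene Tdgf1-ps1, which shares sequence with it, had 26 counts in mESC and 0 in NPC.

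Dppa5a (chromosome 9, 78367052 to 78368177) differed widely between the replicates of a genotype. Its mESC counts in replicates 1 and 2 were 7 and 0 in KO, 20 and 2 in WT, 3 and 4 at Q20, 6 and 1 at Q50, 10 and 2 at Q92, and 13 and 4 at Q111. The deeper library held more counts in all 6 genotypes, and in CPM the replicates numbered 1 stood at 5.61 ± 3.53 against 1.83 ± 1.03 for those numbered 2 (SD, n = 6 each). No test was made of that difference. Pou5f1, Tdgf1 and Utf1 went the other way, with replicate 2 the higher in all 6 genotypes, at 3.82 ± 1.98 against 8.91 ± 3.63 CPM, 5.85 ± 2.15 against 10.6 ± 3.87 CPM and 2.13 ± 1.39 against 6.69 ± 3.35 CPM for replicates 1 and 2 (SD, n = 6 each). The summed level of the 10 genes was likewise higher in replicate 2 in all 6 genotypes. Its mean was 47.8 CPM (33.9 to 64.8) in the replicates numbered 1 and 62.8 CPM (54.0 to 71.3) in those numbered 2. These differences were not tested either, and the share of all genes with such an order is not given. For Dppa5a, no NPC library had a count, a level at least 8.22-fold higher in mESC (adjusted p 3.04e-07). Of the 30-base stretches of its transcripts, 58.1% also occur in other annotated genes, more than in any other member, so its counts are uncertain as those of a single gene.

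Lin28a (chromosome 4, 134003330 to 134018841) had 2 to 18 counts in mESC with a median of 7.0. Its NPC counts were 5 and 6 in the Q20 libraries and 0 in the other 10. Over all libraries the log2 change was -1.67 ± 0.48 (SE, adjusted p 0.00374), and without the 4 Q20 libraries Lin28a was at least 8.34-fold higher in mESC (adjusted p 1.64e-07). Dnmt3b (chromosome 2, 153649450 to 153687730) had 0 to 32 counts in mESC with a median of 6.0, and in NPC 4 in each Q20 library and 0 in the rest. The log2 change was -2.29 ± 0.52 (SE, adjusted p 0.000143), and without the Q20 libraries Dnmt3b was at least 6.01-fold higher in mESC (adjusted p 1.61e-05). Over all libraries these 2 genes had the smallest fall among the 9 called, and in the 5 other genotypes neither had a single NPC count.

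**Figure D2:**
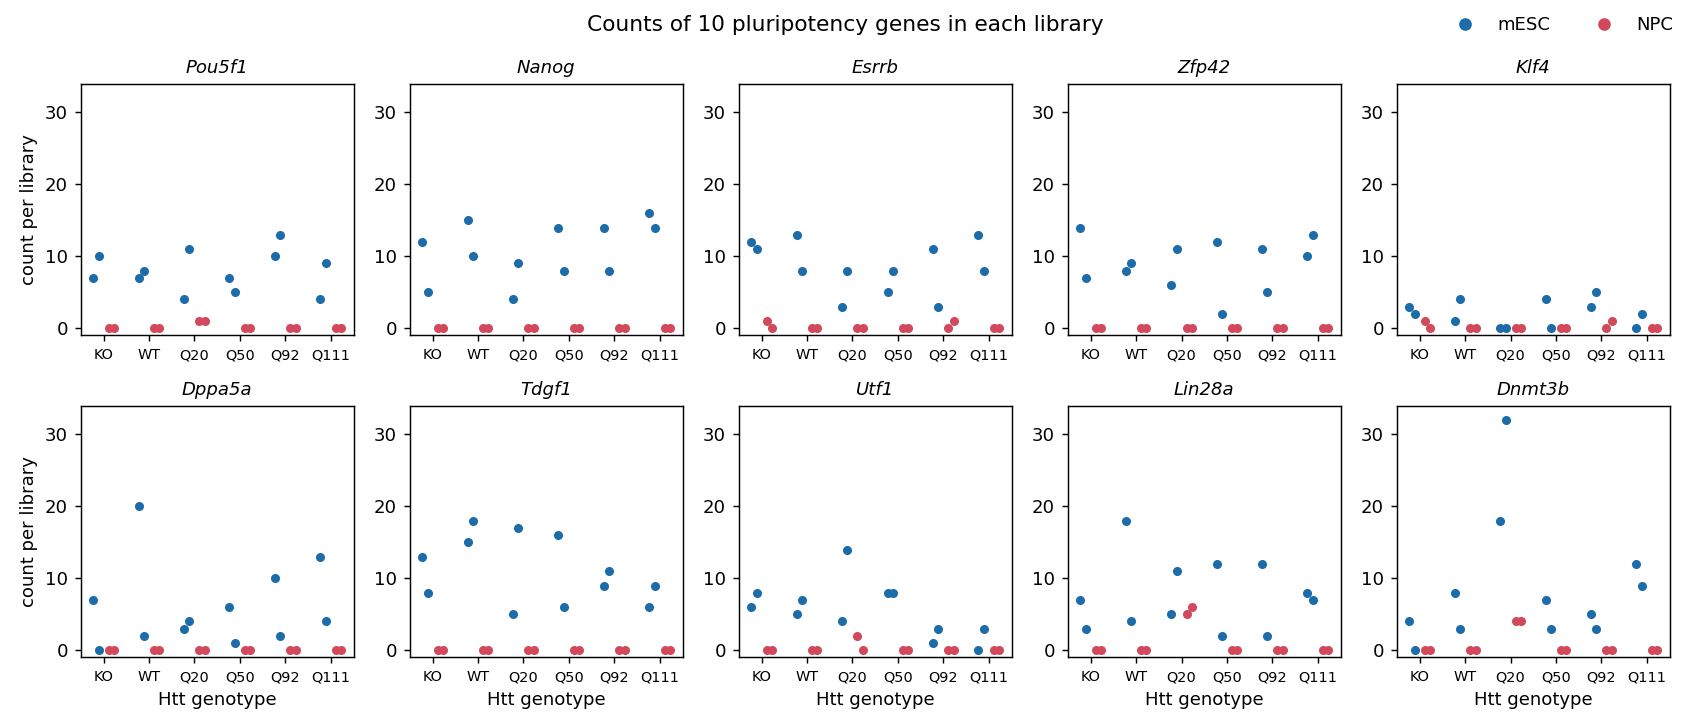
Counts per library (vertical axis) for each of the 10 genes by Htt genotype (horizontal axis), 2 mESC and 2 NPC libraries per genotype as points, with replicate 1 to the left. NPC counts stay at 0 to 2 except in Q20 for Lin28a, at 5 and 6, and Dnmt3b, at 4 and 4; the highest mESC counts of Dnmt3b are those of Q20, at 18 and 32.

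**Figure D3:**
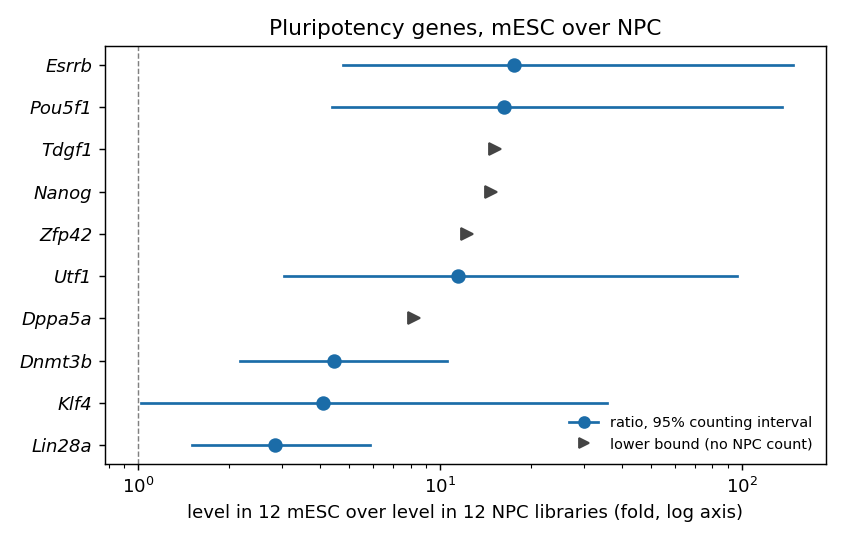
Level in the 12 mESC libraries over that in the 12 NPC libraries for each gene (fold, log axis). Points with lines are ratios with 95% counting intervals, arrows are lower bounds for the 4 genes without an NPC count, and the dashed line is no difference; ratios run from 2.83 for Lin28a to 17.6 for Esrrb.

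Per kilobase of exon, the mESC level was highest for Dppa5a, at 6.02 ± 5.12 CPM per kb, and lowest for Klf4, at 0.527 ± 0.599 CPM per kb (SD, n = 12 each). Between them stood Utf1 (3.59), Nanog (3.45), Zfp42 (3.31), Tdgf1 (3.13), Pou5f1 (2.83), Lin28a (1.23), Dnmt3b (1.12) and Esrrb (1.06 CPM per kb). No member differed from its neighbour in this order by more than the larger of their SDs, and the order differed between replicate numbers. Dppa5a stood at 9.07 CPM per kb in the replicates numbered 1 and at 2.96 in those numbered 2, where Utf1 (5.45), Tdgf1 (4.03), Pou5f1 (3.96), Nanog (3.78) and Zfp42 (3.57) stood above it. Among the 13106 protein-coding genes with an mESC count, 9 of the 10 stood above at least 93.6% of genes on this scale (the value of Esrrb), and Klf4 stood above 82.9%.

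Most other genes of the pluripotency network that were listed moved with these 10, and some did not. Of all 9622 genes tested, 7.89% were called lower and 14.6% higher in NPC. Of a list of 39 further genes, 38 were tested, 26 were called lower and 1 higher in NPC. Their log2 changes had a median of -2.91, or of -2.12 with the 17 genes without a count in 1 cell type at their bound. The smallest p-values were those of Tet1, a DNA demethylase (604 counts in mESC and 30 in NPC; log2 change -2.86 ± 0.31 SE, adjusted p 4.11e-18), L1td1, an RNA-binding protein (164 and 1 counts, adjusted p 9.06e-14), and Fgf4, a growth factor (123 and 0 counts, adjusted p 5.31e-12). The 1 higher gene was Stat3, which relays the LIF signal (log2 change 1.22 ± 0.44 SE, adjusted p 0.0291). Sox2, the partner of Pou5f1 that neural progenitors also use, had a log2 value of -0.57 ± 0.29 (SE) that did not pass (adjusted p 0.154).

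Markers of other cells were measured beside them. Where 14.6% of all genes tested were called higher and 7.89% lower in NPC, 11 of 13 neural progenitor markers were called higher and none lower. Their log2 changes had a median of 5.66, or of 5.25 with 4 genes at their bound. Their summed level was 7.07 to 19.7 CPM in mESC, 162 to 180 CPM in the Q20 NPC libraries and 226 to 415 CPM in the other NPC libraries. Fibroblast markers, which would show the feeder layer, had 3 of 14 genes tested, with 1 called higher and 2 lower in NPC. Their summed level was 14.1 to 31.9 CPM in mESC, 14.48 to 28.79 CPM in the Q20 NPC libraries and 2.98 to 19.25 CPM in the other NPC libraries. Of the 14, Col1a1, Col1a2, Col3a1, Postn, Acta2, Dcn, Lum and Twist2 had no count in any mESC library. The mESC counts were 295 for Fn1, 49 for Sparc, 15 for Thbs1, 8 for Col5a1, 3 for Lox and 1 for Thy1. Fn1 and Thbs1 were the 2 called lower in NPC, and Sparc the 1 called higher. Col3a1 had 4 counts in replicate 1 of Q20 NPC and 3 in the NPC of the other genotypes. Of 9 endoderm and mesoderm markers, Lamb1 alone was tested, and it was lower in NPC (394 counts in mESC and 66 in NPC, adjusted p 0.00147). Their summed level was 9.75 to 38.1 CPM in mESC.

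The 12 NPC libraries were then compared with each other, Q20 against the other 5 genotypes. Lin28a and Dnmt3b stood apart, at 9.32 ± 0.462 CPM and 6.82 ± 0.540 CPM in the Q20 libraries (SD, n = 2), and both were at 0 in the other 10. Lin28a was at least 15.1-fold and Dnmt3b at least 11.0-fold higher in Q20 NPC. Pou5f1 with 1 and 1 counts and Utf1 with 2 and 0 were at or under the floor of 3 counts. The other 6 members, among them Nanog, Zfp42 and Tdgf1, had no count in Q20 NPC.

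Only Lin28a had the total of 10 counts over the NPC libraries that the test asked for, and all 11 of its counts were in Q20. It was called higher (edgeR adjusted p 3.85e-05), where 0.747% of 4953 genes were called higher. Since Lin28a passed the filter through the group in which it is high, the call adds nothing to the counts themselves. With every gene that had a count entered, 6 members were tested, and Dnmt3b was called too (edgeR adjusted p 0.00165). All 8 of its NPC counts were in Q20, so it also entered through the group in which it is high. That call likewise adds nothing to the counts. In that setting either Q20 library alone against the other 10 gave log2 changes of 5.275 and 5.27 for Lin28a and 4.709 and 4.958 for Dnmt3b. The lone library is there assumed to vary like the other 10, which are all at 0 for both genes. That line was singled out with its stem-cell RNAs already known. Over 3 counts in Q20 NPC with none in the other 10 libraries was seen in 2 of the 10 members and in 0.385% of the 9622 genes. Of the 39 further pluripotency genes 3 met it, Sall4, Lin28b and Otx2, with 4, 4 and 6 counts in Q20 NPC; they are named after their values were seen. The neuronal gene Stmn2 met it too, with 4 and 3 counts in Q20 NPC, 0 in the other NPC libraries and 76 in mESC.

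Set against mESC of the same line, Lin28a did not differ beyond counting error: its level was 5.11 ± 2.25 CPM in Q20 mESC and 9.32 ± 0.462 CPM in Q20 NPC (SD, n = 2 each), a ratio of mESC to NPC of 0.559 with a 95% counting interval of 0.244 to 1.33. Dnmt3b was 2.40-fold higher in Q20 mESC (1.13 to 5.87). Tdgf1, with 22 counts in Q20 mESC, was at least 2.82-fold higher there, Zfp42 with 17 counts at least 2.18-fold and Nanog with 13 counts at least 1.67-fold. Unlike the interval of Dnmt3b, these bounds leave out the counting error of the mESC counts. The difference between NPC and mESC was then compared between Q20 and the other genotypes, and Lin28a was the 1 member called (edgeR adjusted p 0.00122; 0.27% of 9622 genes called in that direction). In the other genotypes it fell to no count in NPC, and in Q20 the levels lay within counting error of each other. The call rests on the same 11 counts in Q20 NPC, in a line singled out with its stem-cell RNAs already known. It is therefore no separate support. Dnmt3b (log2 value 3.58, edgeR adjusted p 0.417), Pou5f1 (4.04, 0.557) and Utf1 (3.08, 0.721) fitted in the same direction as Lin28a and did not pass. Pou5f1 and Utf1 had only 2 counts each in Q20 NPC. Esrrb fitted the other way (-1.19, adjusted p 0.939). The test carried no information on Nanog, Zfp42, Dppa5a and Tdgf1, which had no NPC count, or on Klf4, which had no count in any Q20 library.

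In the summed count of the 10 genes, Lin28a made up 47.8% and Dnmt3b 34.8% in Q20 NPC, 9.47% and 29.6% in Q20 mESC, and 9.91% and 7.13% in the other mESC libraries. Beside these, the 14 microRNAs of the Mir290 and Mir302 clusters, which mark stem cells, had 201 and 233 counts in the Q20 NPC libraries, 2140 to 4289 in the mESC libraries and 0 or 1 in the other 10 NPC libraries. These are raw counts, and every mESC library was deeper than both Q20 NPC libraries, so they overstate the gap in level. The 5 neuron markers had a summed level of 20.9 to 37.8 CPM in Q20 NPC and 13.8 to 48.6 CPM in the other NPC libraries. The part of any of these in the Q20 values was not tested.

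**Figure D4:**
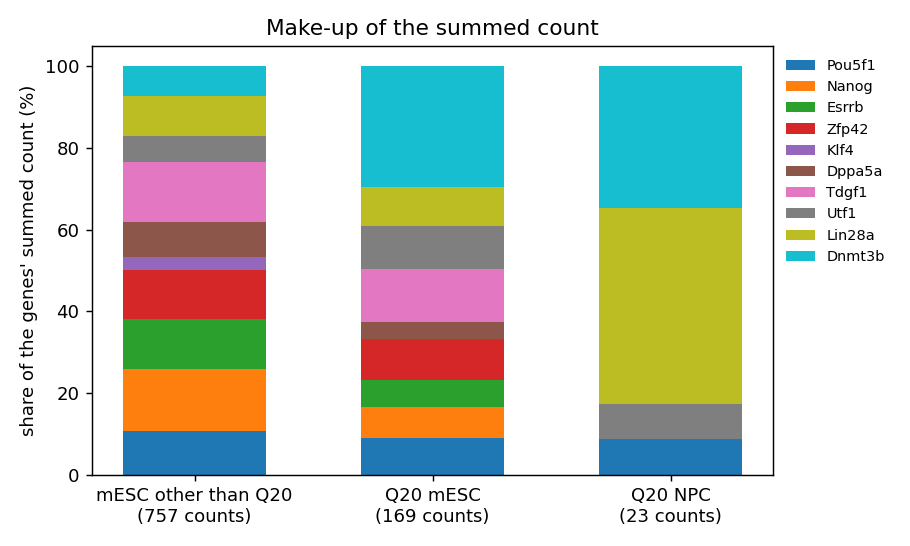
Share of each gene in the summed count of the 10 genes (%, vertical axis) in the 10 mESC libraries other than Q20, the 2 Q20 mESC libraries and the 2 Q20 NPC libraries, with the summed count under each bar. Lin28a and Dnmt3b take 47.8% and 34.8% of the 23 counts in Q20 NPC, where 6 genes have no share.

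Genotypes were next compared within mESC, where all 10 genes had the counts to be tested. Dnmt3b was the 1 member that differed among the 6 genotypes (edgeR F test, adjusted p 0.0144), where 0.293% of 7845 genes were called. It had 18 and 32 counts in Q20, 12 and 9 in Q111, 8 and 3 in WT, 7 and 3 at Q50, 5 and 3 at Q92, and 4 and 0 in KO. Both Q20 libraries, at 12.7 and 19.5 CPM, stood above the other 10, which reached at most 6.43 CPM. The call was lost under library totals (adjusted p 0.141), with edgeR's own filter on low counts (0.298), and without replicate 1 of Q20, replicate 2 of Q20 or replicate 2 of KO, with adjusted p-values up to 1.

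A comparison of Q20 mESC with the other 10 mESC libraries was added after these counts were seen. Dnmt3b was 4.39-fold higher in Q20 (95% counting interval 2.93 to 6.57), or 2.17 ± 0.43 on the log2 scale (SE, edgeR adjusted p 0.000967), where 0.204% of 7845 genes were called higher. The log2 change was 1.95 under library totals (adjusted p 0.0718) and 1.88 without replicate 2 of Q20 (adjusted p 0.899). Klf4 had no count in either Q20 mESC library and 24 in the other 10, at least 1.69-fold lower in Q20 (adjusted p 0.643). Ratios of Q20 to the other mESC were 0.531 for Nanog (95% counting interval 0.2747 to 0.9449), 0.567 for Esrrb (0.2735 to 1.0625) and 0.511 for Dppa5a (0.1975 to 1.113). Of these intervals only that of Nanog left out 1. By edgeR's test the adjusted p-values of these genes ran from 0.87 to 0.99. Lin28a was at 1.01 times the level of the others (95% counting interval 0.550 to 1.75).

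The KO and WT libraries address the loss of Htt. Between them, edgeR in mESC called 0 of the 10 members and 0% of 7845 genes, with 0 members and 177 genes at an unadjusted p under 0.05, and DESeq2's Wald test called 0 of each. The summed level of the 10 was 48.4 and 54.0 CPM in KO mESC and 61.6 and 68.0 CPM in WT mESC. The KO sums were the lower ones, yet the mESC libraries of the knock-in lines ran from 33.9 to 71.3 CPM, which encloses the KO and WT values. The difference in the sum was not tested, and 2 libraries per genotype are too few to read that order as an effect. In NPC the KO libraries had 2 and 0 member counts and the WT libraries none, so no fold is given. Over all genes 0.0606% of 4953 were called there. Of the members Lin28a alone entered that test, through its Q20 counts, and it had no count in KO or WT, so the loss of Htt was in effect not tested for any member in NPC.

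The dependence on CAG repeat number was taken as a log2 slope per 10 repeats over the knock-in lines. In mESC edgeR called 0 of the 10 members, where 0.0315% of 6357 genes were called, and DESeq2 called none. An unadjusted edgeR p under 0.05 was seen in 2 members and in 221 of the 6357 genes. The 2 members were Utf1, with a slope of -0.28 ± 0.09 (SE, adjusted p 0.603), and Dnmt3b, with -0.17 ± 0.06 (SE, adjusted p 0.912). Mean levels of Dnmt3b were 16.1 CPM at Q20, 3.42 at Q50, 3.71 at Q92 and 6.26 at Q111, so they did not fall step by step. Counts of Utf1 were 4 and 14 at Q20, 8 and 8 at Q50, 1 and 3 at Q92, and 0 and 3 at Q111. In NPC, Lin28a was called as falling with repeat number (slope -0.91, edgeR adjusted p 0.00522), where 0.853% of 3519 genes were called falling. DESeq2 fitted a slope of -0.51 (unadjusted p 0.278) and gave no adjusted p. Its counts were 5 and 6 at 20 repeats and 0 in all 6 libraries at 50, 92 and 111 repeats, so it entered the test through the Q20 libraries alone, the fall lay between Q20 and the rest, and no slope can be had among the longer repeats. With every gene that had a count entered, either Q20 library alone gave slopes of -0.84 and -0.81 that were not called (adjusted p 0.0774 and 0.128).

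Among 741 genes with a mean of at least 10 counts in the mESC libraries, 5 followed the summed level of the 10 genes most closely over the 24 libraries, by Pearson's r of log2(CPM + 1). They were Mir293 (0.969), Mir292 (0.956), Fam169a (0.95), Igf2bp1 (0.95) and Mir106a (0.943). All 5 were counted in both Q20 NPC libraries, and elsewhere among NPC no library held more than 1 count. Igf2bp1, an RNA-binding protein, had 11 and 15 counts in Q20 NPC against 14 to 47 in the mESC libraries. The mESC libraries were deeper, with TMM-scaled totals of 709726 to 2685933 against 555700 and 621701 in Q20 NPC. Raw counts therefore understate the Q20 NPC level of Igf2bp1 beside mESC. The 24 points fall into the 2 cell types and share the depth of their libraries, so these values describe that split and are given without a p.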

How the data were processed

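Small RNA was sequenced in 24 libraries, 12 mESC and 12 NPC, 2 per genotype. The authors deposited whole-number counts per gene, 1 column per library and not normalized; per the submitters' processing notes CASAVA 1.8, STAR, HTSeq and GRCm38.p6 were used, and annotation, trimming and strand setting are not given in the sources used here. Without a known strand setting, reads of overlapping antisense genes cannot be told apart. Column names with Q89 (4 columns) stand for the line titled Q92. Of 55335 identifiers 55154 matched GENCODE M21, and the rest held 57 of 25027120 counts.

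Tests used edgeR 4.0.16 in R 4.3.3 (glmQLFit, glmQLFTest) on genes with at least 10 counts over the libraries of a fit, adjusted over all genes tested by Benjamini and Hochberg. NPC against mESC was fitted with genotype as a covariate. The Q20 comparisons used 2 or 4 classes, and the other tests the groups or the repeat number of a cell type. TMM factors came from the genes passing filterByExpr: on simulated counts, factors from genes of few counts followed depth. The members do not pass filterByExpr over all libraries, which is why the total was used. DESeq2 1.42.0 served as an alternative test, beside other scalings and filters, a replicate block and leaving out each library. Promoters are RefSeq's, GRCm38.p6.

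The members, lists and main tests were chosen with earlier results of these data known. All 10 members were named. From the other lists the 3 smallest p-values in each direction were named, of the pluripotency list, and as neighbours the 5 highest correlations; other names are marked or serve as markers.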

Additional observations from a re-analysis of the deposited data

Results flagged for a closer look

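The NPC minus mESC difference of Lin28a differed between Q20 and the other 5 genotypes by the product term of a fit over the 24 libraries (edgeR quasi-likelihood, adjusted p 0.00122). Lin28a stood at 5.11 ± 2.25 CPM in Q20 mESC and 9.32 ± 0.462 CPM in Q20 NPC (SD, n = 2 each). In the other genotypes it had 75 counts in mESC, at 4.86 ± 2.61 CPM (SD, n = 10), and 0 in NPC. The term rests on the 11 counts of Lin28a in Q20 NPC, in a line singled out with its stem-cell RNAs already known. Leaving out each of the 24 libraries in turn gave adjusted p-values from 0.000677 to 0.0288, the highest without replicate 2 of Q20 NPC. Genotype groups of 2 and cell types of 12 libraries were not examined for single outlying libraries.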

How the results depend on the processing

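In NPC against mESC, the 9 members called gave 297 values under the alternatives, and none changed sign. 4 of them missed the threshold, those of Pou5f1, Zfp42, Utf1 and Dnmt3b with wild-type libraries alone, where 5 members were called of 9 tested. Leaving out each library gave 9 to 10 members called, Klf4 being the tenth in 10 of the 24. The fit with the replicate number as a block called 10 members, Klf4 added at an adjusted p of 0.0334, and changed no other comparison's number of members called. Replicate numbers were not taken to pair samples, since the replicate differences of 2 groups correlated by over 0.1 in 10 of 15 pairs of groups in mESC, 4 of 15 in NPC and 3 of 6 between cell types. The 10 pairs of mESC groups without Q20 all correlated, at 0.395 to 0.505, and the 5 pairs with Q20 at 0 to 0.073. Q20 NPC against other NPC called 2 members with every gene entered, Lin28a and Dnmt3b, which entered through their Q20 counts alone. Dnmt3b among mESC genotypes gave 0 members under library totals and under filterByExpr, and 0 to 1 without each library; Q20 against other mESC gave 0 under library totals and 0 to 1 without each library. The CAG slope in NPC called 2 members with every gene entered and 0 without either Q20 library. Over all genes, filterByExpr and DESeq2's test called 369 and 1618 genes against 2160 in NPC against mESC, 24 and 16 against 50 for Q20 NPC, 1 and 7 against 23 for mESC genotype, 9 and 4 against 48 for the NPC slope and 4 and 3 against 16 for Q20 mESC, and the block called 51 for mESC genotype and 30 for Q20 mESC. The cause of these changes was not tested. KO against WT and the CAG slope in mESC called 0 members in every setting that gave a value, and KO against WT in NPC held no member with the counts for a test. No value came from filterByExpr, which left no member to test, in NPC against mESC, the product term and the 3 NPC comparisons, nor from leaving out a Q20 NPC library there with the filter of 10 counts. DESeq2 gave no adjusted p for the members in the product term, the mESC genotype test, Q20 against other NPC and the NPC slope, where its unadjusted p for Lin28a was 0.278. Levels of a few counts per library limit all comparisons between genotypes.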
